A study of Mus musculus with 2 samples.

Results

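Cytokine and chemokine genes were examined as one group in a map of Foxp4 binding sites in mouse fat progenitor cells. The group comprised the 169 protein-coding genes whose symbol is Il, Ccl, Ccr, Cxcl or Cxcr followed by a digit, or starts with Tnfsf or Tnfrsf, out of 21900 protein-coding genes in a RefSeq table. By symbol, 87 were ligands, 78 were receptors and 4 belonged to neither class (Il1rn, Il18bp, Il4i1 and Il4i1b). Accessory and decoy receptors were counted as receptors. The sites named for these genes numbered 34 of 3317 in all.

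Foxp4 is a forkhead transcription factor, and DNA bound to it was recovered with a Foxp4 antibody and sequenced (ChIP-seq). The cells came from inguinal white fat of C57BL/6 mice, as its stromal vascular fraction. The mice's age and sex were not stated in the labels. This fraction is the mixture left once mature adipocytes are removed and can hold progenitors, fibroblasts, endothelial cells and leukocytes. The cells were grown for 3 days in 20% serum and then driven toward beige adipocytes for 48 h in 10% serum with 5 µM troglitazone, 50 nM T3, 1 µM dexamethasone, 0.5 mM isobutylmethylxanthine and 5 µg/ml insulin. Of 2 samples, 1 was the Foxp4 ChIP library and 1 was input DNA, which was not analysed here. With 1 library there is no replicate error and no test between conditions, the read depth is unknown, and intervals below cover counting error over genes only. A peak shows where Foxp4-bound DNA was recovered and does not measure expression of the gene named for it.

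Interleukins, chemokines and the tumour necrosis factor (TNF) superfamily are signalling proteins through which immune, stromal and endothelial cells communicate. Interleukin receptors mostly act through JAK kinases and STAT factors, the interleukin 1 and TNF receptor families through adaptor proteins to NF-kB, and chemokine receptors through G proteins. In fat, progenitors and macrophages are known sources of interleukin 6 and of chemokines such as Ccl2. Dexamethasone is a glucocorticoid, a class of hormones that represses many inflammatory genes.

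As a look at the cell type, 7 of 16 markers of progenitors and fibroblasts were the nearest gene of a peak, against 9.1% of all protein-coding genes. Of the markers of other cells the same held for 1 of 15 for macrophages (Timd4), 1 of 15 for lymphocytes (Gata3) and 2 of 10 for endothelium (Pecam1 and Vwf). The share of 6.67% for macrophage and for lymphocyte markers is near that of all genes. Median territories, meaning the gene body plus the part of each neighbouring gap that is nearer to it than to the next gene, were 119 kb for progenitor markers, 53.5 kb for macrophage, 31.9 kb for lymphocyte and 129 kb for endothelial markers, and their part in these counts was not tested. The progenitor and fibroblast markers with a peak were Pdgfra, Dcn, Thy1, Dpp4, Col1a1, Col3a1 and Lox. Those without one were Pdgfrb, Lum, Cd34, Ly6a, Pi16, Dlk1, Icam1, Postn and Fbn1. The markers named for other cells were picked out after their values were seen. Peaks at marker genes cannot show which cells were present.

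In all, 5 member promoters were touched by a Foxp4 peak in the 250 bases before the start site. The same count over all promoters is not given here, so 5 cannot be read as many or few. Of the 5, the 4 that belong to interleukin and interleukin receptor genes are shown. They are windows of RefSeq's GRCm38.p6 promoter table, the assembly behind mm10, and 130 of the 169 members had a window there. Capitals mark TGTTT or its reverse complement AAACA, the core of the forkhead recognition sequence. Il13ra2, a decoy receptor for interleukin 13, lies on the minus strand, with the window at chrX:147429193-147429442 and a peak of score 129 over 219 of its bases. Il6, the gene of interleukin 6, has its window on the plus strand at chr5:30012864-30013113, all 250 bases of it under a peak of score 65. Il4ra, the receptor chain shared by interleukins 4 and 13, has its window on the plus strand at chr7:125552021-125552270, wholly under a peak of score 38. Il1r1, the signalling receptor of interleukin 1, has its window on the plus strand at chr1:40224830-40225079, with the last 111 bases under a peak of score 19. The RefSeq body of Il1r1 begins upstream of this window, at position 40222480, so the window lies inside the gene body.
Il13ra2: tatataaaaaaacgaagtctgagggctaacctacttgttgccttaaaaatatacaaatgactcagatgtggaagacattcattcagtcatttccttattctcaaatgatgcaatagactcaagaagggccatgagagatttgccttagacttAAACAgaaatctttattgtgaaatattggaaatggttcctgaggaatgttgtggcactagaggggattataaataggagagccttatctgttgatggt
Il6: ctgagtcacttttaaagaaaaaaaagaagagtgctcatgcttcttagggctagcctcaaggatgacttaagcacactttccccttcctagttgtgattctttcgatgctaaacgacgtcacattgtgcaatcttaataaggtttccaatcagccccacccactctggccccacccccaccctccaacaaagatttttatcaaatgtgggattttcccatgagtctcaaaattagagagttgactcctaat
Il4ra: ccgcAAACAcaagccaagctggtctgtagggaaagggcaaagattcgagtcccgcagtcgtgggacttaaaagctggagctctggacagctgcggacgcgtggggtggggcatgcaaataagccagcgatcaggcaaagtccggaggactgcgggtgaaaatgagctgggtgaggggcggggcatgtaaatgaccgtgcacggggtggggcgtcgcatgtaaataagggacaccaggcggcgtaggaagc
Il1r1: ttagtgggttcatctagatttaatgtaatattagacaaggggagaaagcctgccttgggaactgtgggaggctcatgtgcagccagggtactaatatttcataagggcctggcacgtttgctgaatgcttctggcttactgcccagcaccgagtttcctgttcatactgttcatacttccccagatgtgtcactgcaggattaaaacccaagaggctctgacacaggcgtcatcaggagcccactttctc

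The Il13ra2 window held 1 AAACA, beginning 98 bases before the start site, and the Il4ra window held 1, beginning 246 bases before it. The Il6 and Il1r1 windows held neither TGTTT nor AAACA. The remaining window, that of Tnfrsf14, held 1 TGTTT. In windows of the same length, TGTTT or AAACA was found in 46.4% of 32817 in the whole table and in 53.2% of 156 windows of the members. The longer forkhead sequence TGTTTAC, or GTAAACA on the other strand, which contains that core, was in none of the 5 windows and in 3.16% of all windows. A match describes letters in the window and is not evidence of a bound site.

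A peak was assigned by nearest start site to 23 of the 169 members (13.6%, exact 95% binomial interval 8.83 to 19.7), against 9.1% of all protein-coding genes. Within 3 kb of the start site 6 members had one (3.55%, 1.31 to 7.57), against 2.08% of all genes. Both intervals include the share over all genes. The members' median territory was 44.0 kb and that of all protein-coding genes 46.4 kb. In the gene body with 20 kb on each side, 22 members held a peak, against 11.1% of all genes.

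Ligands and receptors carried a peak in like shares, 11 of 87 ligands (12.6%, 6.48 to 21.5) and 11 of 78 receptors (14.1%, 7.26 to 23.8). Within families the shares ran in opposite directions, a split that was seen in these data and was not tested. Among interleukins, 1 of 38 ligands had a peak (2.63%, 0.0666 to 13.8), namely Il6, and 8 of 41 receptors did (19.5%, 8.82 to 34.9). Among chemokines, 9 of 37 ligands had one (24.3%, 11.8 to 41.2) and 1 of 17 receptors did (5.88%, 0.149 to 28.7), namely Ccr7. In the TNF families the counts were 1 of 12 ligands (Tnfsf15) and 2 of 20 receptors (Tnfrsf14 and Tnfrsf8). Median gene bodies were 6.40 kb for interleukin ligands, 32.4 kb for interleukin receptors and 3.19 kb for chemokine ligands, and the part of gene length in these shares was not tested. Counted by gene body and its 20 kb flanks, a peak was held by 3 of 38 interleukin ligands, 9 of 41 interleukin receptors, 5 of 37 chemokine ligands and 1 of 17 chemokine receptors, against 11.1% of all genes. By this assignment the share of chemokine ligands was 13.5% (4.54 to 28.8), an interval that includes the share of all genes, as it did not by nearest start site. The intervals treat genes as independent, whereas several chemokine ligands with a peak are neighbours in a cluster.

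**Figure D1:**
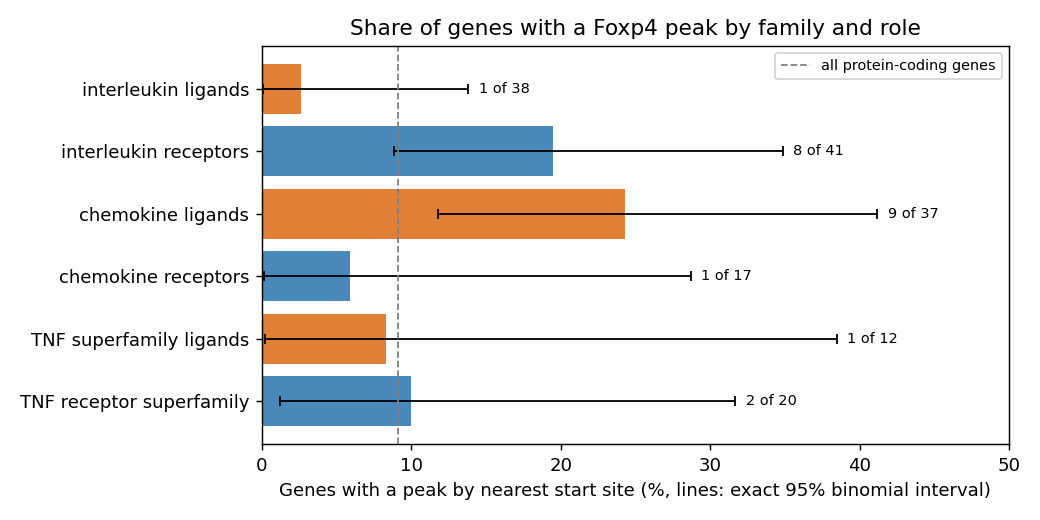
Horizontal bars give the percentage of genes in each family that were the nearest gene of at least 1 Foxp4 peak, with exact 95% binomial intervals as lines and gene counts beside them. The dashed line is the 9.1% of all protein-coding genes. By this assignment the interval of chemokine ligands lies above that line and those of the other 5 groups cross it, whereas by gene body and its 20 kb flanks the interval of chemokine ligands includes the share of all genes. The intervals treat genes as independent, which neighbouring genes of a cluster are not.

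Ligand peaks were mostly intergenic and receptor peaks mostly were not, a difference that was not tested. Of 17 peaks named for ligands, 15 were intergenic and 2 lay within 3 kb of a start site, both at Il6. Of 16 peaks named for receptors, 5 were intergenic, 7 were in introns, and 8 lay within 3 kb. Il1r1 alone gave 5 of those 16, and without it 5 of 11 receptor peaks lay within 3 kb and 3 of 11 were intergenic. Over all peaks, 16.5% lay within 3 kb and 50.5% were intergenic. For peaks named for protein-coding genes, as all members are, these shares were 18.2% and 48.2%. The median distance to the start site was 24.1 kb for ligand peaks, 8.15 kb for receptor peaks and 30.3 kb for all peaks. It was 27.3 kb for peaks named for protein-coding genes. Ligand genes are shorter, with a median body of 5.46 kb against 19.9 kb for receptors, and the part of this in the placement was not tested.

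Peak strength was read from the authors' score, a whole number that ran from 13 to 2569 over the list and was used here only for description and ranking. Member peaks scored 16 to 583 with a median of 73 (order-statistic 95% interval 49 to 122), against 65 for all peaks. The median was 63 for ligand peaks and 96 for receptor peaks, or 115 for receptors without Il1r1. Among all peaks, 1 member peak ranked in the top 100, 5 in the top 500 and 14 in the top 1000. Member peaks were 34 of all 3317 peaks, and the counts in the top 100 and top 500 are near that share. The median width was 412.5 bp for member peaks and 393 bp for all. None of the 34 lay on a simple tandem repeat, and 8.59% of all peaks did. An approximate upper limit for the member share, 3 over the number of peaks and not an exact interval, is 8.82%. Repeats of any kind were annotated at 5 of 34 (14.7%), against 23.3% of all peaks.

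**Figure D2:**
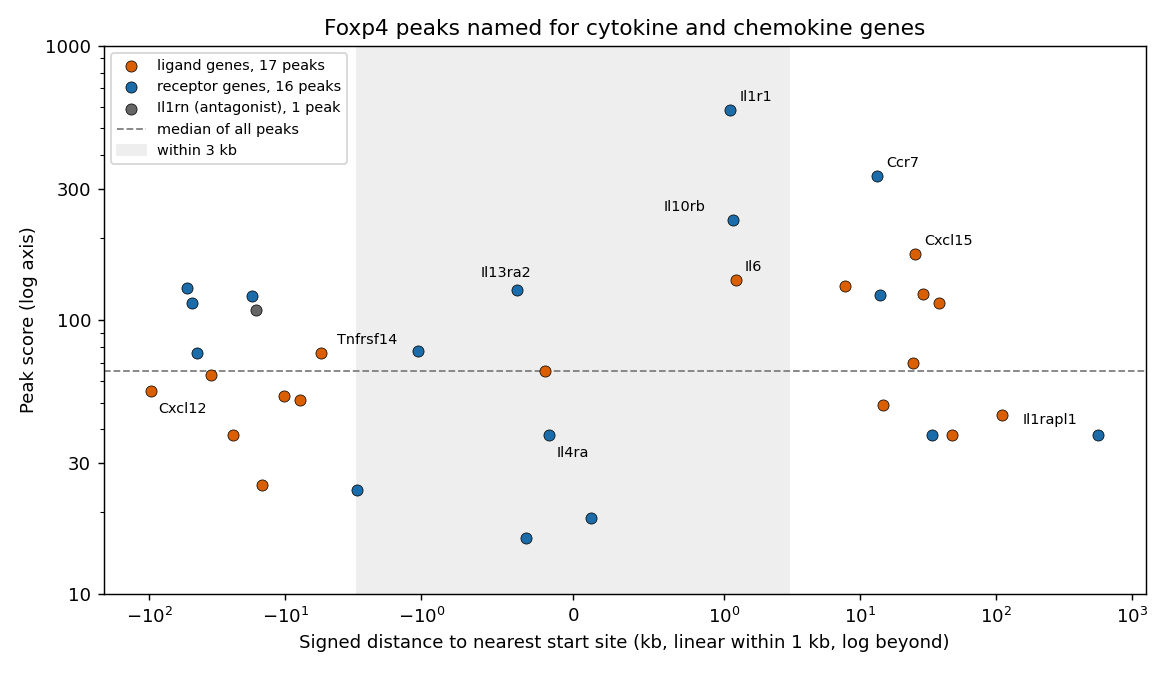
Each point is 1 of the 34 peaks named for member genes, at its signed distance to the nearest start site in kb (linear within 1 kb and logarithmic beyond) and its score (log axis). The shaded band is the 3 kb window and the dashed line the median score of all peaks, 65. Of the 10 points in the band 8 are receptor peaks, and the highest, at 583, is in Il1r1.

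The interleukin 1 receptor gene held the highest-scoring peak of the group and more peaks than any other member. Il1r1 binds interleukin 1 alpha and beta and signals together with the accessory chain Il1rap. The territory of Il1r1 was 146.5 kb, against a median of 46.4 kb for all protein-coding genes. Its part in the number of peaks was not tested. Il1r1 was the nearest gene of 5 peaks, a number reached or passed by 21 of the 21900 protein-coding genes (0.0959%). The highest had a score of 583, rank 31 of 3317, and lay in intron 1 of 10, 1110 bp past the first start site (chr1:40225867-40226514, 648 bp wide). Here the first start site is the first one in the promoter table, at position 40225080. The RefSeq body of Il1r1 begins further upstream, at -2.6 kb from it. A separate weak peak of score 19 sat in the 5' UTR in exon 1, 121 bp past that start site (chr1:40224969-40225433), and its upstream side covers the end of the Il1r1 window printed above. The midpoints of these 2 peaks are 0.989 kb apart.

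The other Il1r1 peaks lay on both sides of these. Upstream, intergenic peaks of score 131 (chr1:40172163-40172505) and 76 (chr1:40180710-40181062) stood at -52.7 and -44.2 kb from the first start site and 8.55 kb from each other. Downstream, a peak of score 24 in intron 1 (chr1:40263433-40263837) lay 38.6 kb past the first start site and at -2951 bp from the alternative start site at position 40266586. None of the 5 was on an annotated repeat.

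Il1r1 sits in a cluster of 6 related receptor genes with Il1r2, the interleukin 1 decoy receptor, Il1rl2, the interleukin 36 receptor, Il1rl1, the interleukin 33 receptor, and Il18r1 and Il18rap, the interleukin 18 receptor chains. The window from 100 kb before Il1r2 to 100 kb after Il18rap (chr1:39984692-40651707, 667 kb) held 5 peaks, all named for Il1r1. The peak closest to the body of Il1r2 was 47.1 kb away, and for the other 4 genes it was 60.9 kb (Il1rl2), 141 kb (Il1rl1), 202 kb (Il18r1) and 252 kb (Il18rap) away. With peaks under a score of 30 left out, 3 of the 5 peaks were left.

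**Figure D3:**
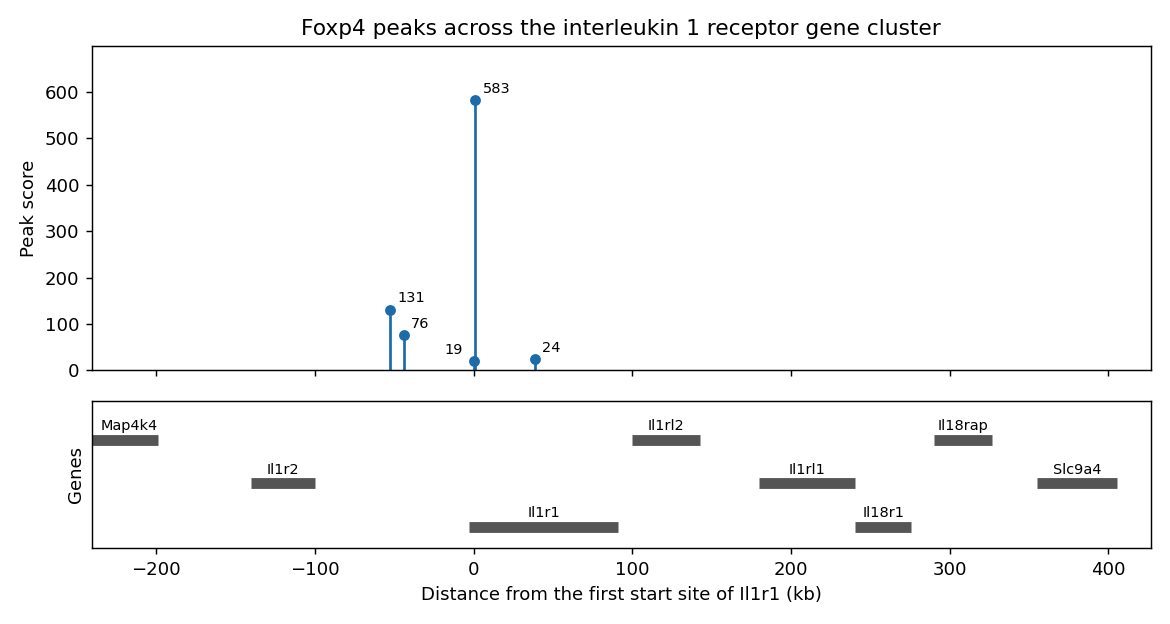
Vertical lines give the score of each peak (upper panel) and grey bars the protein-coding genes (lower panel), by distance in kb from the first start site of Il1r1 in the promoter table. The RefSeq body of Il1r1 begins at -2.6 kb. All 5 peaks fall between -52.7 and 38.6 kb, and none falls in the bodies of Il1r2, Il1rl2, Il1rl1, Il18r1 or Il18rap.

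Elsewhere in the genome, some genes related to the interleukin 1 system had a peak and others had none. Il1rn, the secreted antagonist that competes for Il1r1, had 1 intergenic peak of score 109 at -16.4 kb (chr2:24320219-24320686). Il1rapl1, a relative of the accessory chain known from neurons, had 1 peak of score 38 in intron 2, 562 kb from its start site on chromosome X. Its territory was 2210 kb, against a median of 44.0 kb for the members, and the part of this in the count was not tested. The related gene Il1rapl2 had no assigned peak. Il1rap was not the nearest gene of any peak, but a peak of score 317, rank 114, lay inside its body (chr16:26668944-26669646) and was assigned to the non-coding gene Gm20319. Il1rap was picked out after its value was seen. The ligand genes Il1a and Il1b had no assigned peak, and the closest lay 89.2 and 154 kb from their bodies. Il1f5, Il1f6, Il1f8, Il1f9 and Il1f10 had none assigned either.

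By nearest start site, the interleukin 6 system had a peak at the ligand and at both receptor chains. Il6 had 2 peaks, the higher in intron 2 of 4 with a score of 140 at 1219 bp past the start site (chr5:30014019-30014648). The other, of score 65 at -186 bp (chr5:30012611-30013246), covered the whole Il6 window printed above. Il6ra, the ligand-binding chain, had 1 peak of score 123 in intron 1, 14.0 kb from the start site and on an L2 repeat. Il6st, the signalling chain gp130 shared with leukaemia inhibitory factor and oncostatin M, had 1 intergenic peak of score 115 at -48.3 kb. By gene body and its 20 kb flanks Il6st held none.

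Among the other interleukin receptors, 3 had a peak within 3 kb. Il10rb, a chain shared by the receptors for interleukins 10 and 22, had a peak of score 231, rank 220, in intron 1 at 1156 bp (chr16:91407119-91407664). Il13ra2 had its peak of score 129 at -371 bp (chrX:147429224-147429902), and Il4ra had one of score 38 at -155 bp (chr7:125551931-125552324). Of these 3, Il4ra scored below the median of all peaks and the other two above it.

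Il15ra was assigned a peak of score 122 at -17.5 kb (chr2:11687601-11688011) that lies in the last intron of the neighbouring gene Il2ra, which encodes the alpha chain of the interleukin 2 receptor. The nearest start site thus names one receptor gene and the gene body another. Il2ra and Il1rap thus held a peak in the body, and Il16 and Il34 one within 20 kb of it, without being its nearest gene. Conversely, Cxcl13, Cxcl12, Ccl2, Ccl8 and Il6st were the nearest gene of a peak but held none in the body or 20 kb around it.

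Chemokine ligand peaks were all intergenic. Of the 14, 7 lay in one cluster of Cxcl genes on chromosome 5, which encode attractants of neutrophils. The span from 20 kb before Cxcl5 to 20 kb after Cxcl2 (chr5:90739298-90925938, 187 kb), chosen after the peaks were seen, held 37.5 peaks per Mb against 1.23 over the genome. Each of the 7 had 6 or 7 other peaks within 150 kb, and 60 of all peaks (1.81%) had 6 or more. Most lay in the gap between Cxcl15 and Cxcl1.

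Cxcl15 was assigned 3 of them, with scores of 174 (chr5:90819742-90820143), 115 and 38 at 25.4, 38.2 and 47.2 kb from its start site. Cxcl1, a ligand of Cxcr2, was assigned 3 with scores of 63, 53 and 25 at -35.4, -10.2 and -14.9 kb. Cxcl5 had 1, of score 76 at -5.46 kb. The genes Cxcl3 and Cxcl2 in the same cluster had none assigned, and the closest peaks lay 31.9 and 22.9 kb from their bodies. Of the 7 peaks, 6 sit between 2 genes, so the named gene depends on which start site is nearer.

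**Figure D4:**
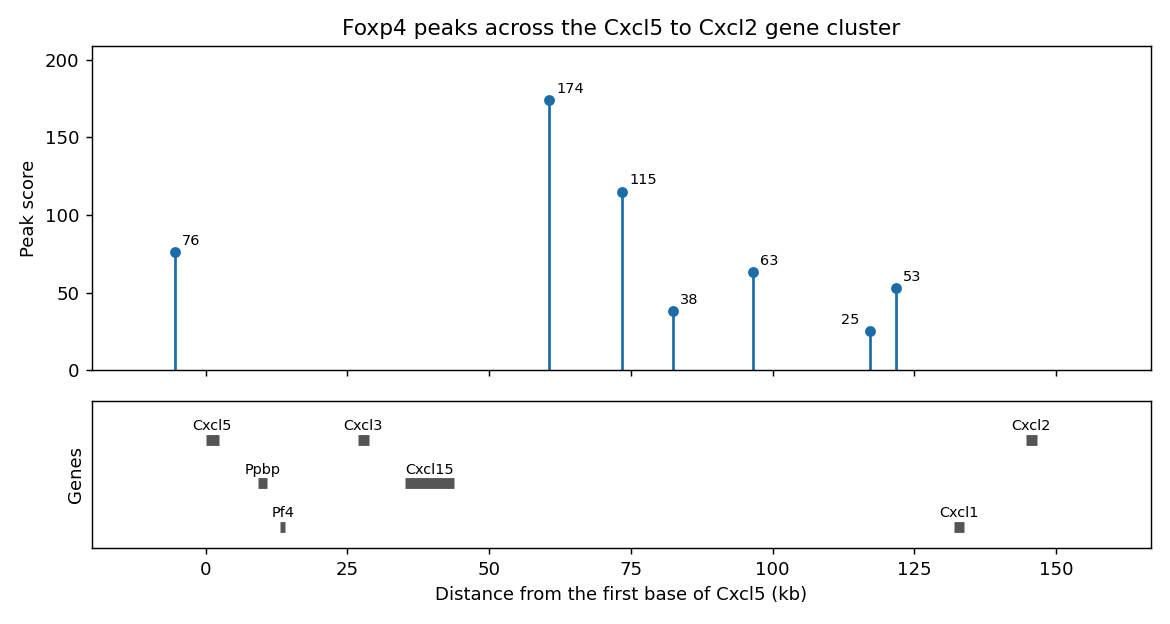
Vertical lines give the score of each peak (upper panel) and grey bars the protein-coding genes (lower panel), by distance in kb from the first base of Cxcl5. A peak lies 5.46 kb before Cxcl5, and 6 lie from 60.6 to 122 kb after it, in the gap between Cxcl15 and Cxcl1, with the score of 174 at 16.9 kb from the body of Cxcl15.

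The remaining Cxcl ligands with a peak were Cxcl13, which attracts B cells, and Cxcl12, a stromal chemokine that binds Cxcr4. Cxcl13 had a peak of score 124 at 28.9 kb, on a T-rich stretch, and Cxcl12 had peaks of score 55 at -96.8 kb and 45 at 111 kb. Among Ccl ligands, 4 had 1 peak each. Ccl1 had a score of 133 (7.75 kb, on an L1 element), Ccl8 one of 70 (24.4 kb) and Ccl9 one of 49 (14.6 kb). Ccl2, the monocyte attractant, had a score of 38 at -24.1 kb, on an L1 element. Of these, Ccl2, Ccl8 and Ccl1, belong to one cluster on chromosome 11, where Ccl7, Ccl11 and Ccl12 had none assigned.

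Ccr7, a receptor that guides lymphocytes and dendritic cells to lymph nodes, was the chemokine receptor with a peak. It scored 335, rank 105 and the next after Il1r1 in the group, and lay intergenically 13.4 kb past the start site (chr11:99141517-99141930), 2.48 kb beyond the body of the gene. None of the 6 Cxcr genes had a peak, Cxcr4 included, whose closest peak was 2492 kb away.

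In the TNF families the share of genes with a peak was 8.33% for ligands and 10.0% for receptors, near the 9.1% of all protein-coding genes. Tnfrsf14, the receptor also called HVEM, had a promoter peak of score 16 at -306 bp (chr4:154928232-154928534) and an intergenic one of score 77 at -1063 bp on an ERVK element (chr4:154928925-154929355). Tnfrsf8, the receptor CD30, had a peak of score 38 in intron 10 of 12 at 33.8 kb. Tnfsf15, the ligand known as TL1A, had one of score 51 at -7.86 kb. The TNF receptors Tnfrsf1a and Tnfrsf1b had none assigned, with the closest peaks 211 and 34.5 kb from their bodies.

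The other 146 members were not the nearest gene of any peak. Their closest peak lay a median of 217 kb from the gene body, and for 40 of them within 100 kb. The same values over all protein-coding genes are not given here, so these distances cannot be read as near or far. Only the positions in this list bear on these genes, and since the depth is unknown a weaker site cannot be told apart from no site.

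A list of 116 other genes of these pathways covered further cytokines, receptors, JAK and STAT proteins and the NF-kB cascade. It was chosen with earlier results of these data known, and the share was not tested. Of these genes, 21 had an assigned peak (18.1%, 11.6 to 26.3), against 9.1% of all protein-coding genes. Their 25 peaks had a median score of 62, close to the 65 of all peaks, and their median territory was 48.9 kb. The 8 with the highest score were Map3k7 (122), Birc2 (113), Nfkb1 (112), Stat5a (102), Traf1 (96), Tslp (93), Traf5 (89) and Xcl1 (80), none within 3 kb of a start site. Birc2, Stat5a, Traf1 and Traf5 held a peak in the gene body or its 20 kb flanks. Map3k7, Nfkb1, Tslp and Xcl1 held none there, and their highest peaks lay at 215.9, -38.17, -96.33 and 35.97 kb from the start site. The territory of Map3k7 was 1665 kb, and its part in the assignment was not tested. Nfkb1 encodes an NF-kB subunit, Map3k7 the kinase TAK1 upstream of it, and Birc2, Traf1 and Traf5 proteins of TNF receptor signalling.

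Of the 116, 5 had a peak within 3 kb, where 2.08% of all protein-coding genes had one. Stat3, the main STAT factor of interleukin 6 signalling, had one of score 68 at -197 bp (chr11:100939536-100939939). Tnfaip3, which encodes the NF-kB inhibitor A20, had one of score 57 at 2577 bp in an intron. The oncostatin M receptor gene Osmr had one of score 35 at 1596 bp on a simple repeat. Nfkbiz, an NF-kB cofactor gene, had one of score 23 at 62 bp, and the gp130 cytokine gene Clcf1 one of score 17 at -403 bp. Of these 5, Stat3 alone scored above 65.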

How the data were processed

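Foxp4 peaks of 1 ChIP library were analysed, without replicates and with the read depth unknown. Per the file headers, the authors annotated a narrowPeak file on mm10 with HOMER's annotatePeaks.pl. The submitters' processing notes list deepTools 3.3.0, MACS2, SAMtools, Picard and Bowtie2 and no roles for them. The part of the input in peak calling and the handling of multiply aligned reads are not given in the sources used here, and either step could alter the peaks seen at repeats and gene clusters. The peak score in the deposited file is a whole number whose scale is not stated, so it was used to describe and rank only. Distances, classes, repeats and nearest genes are those of the file.

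All 3317 peaks were kept, and 1 line without a peak was dropped. Gene names, types and bodies came from RefSeq GRCm38.p6, where 2459 of 2462 nearest genes were found by gene number. Ligand and receptor classes follow the symbols, and Il4i1b was put with Il4i1. Alternatives changed the score limit, distance limit, window and gene assignment. Shares have exact (Clopper-Pearson) 95% binomial intervals (scipy 1.17.1), and no test was run. The members and lists were chosen with earlier results of these data known. Named were every member with a peak and, of the other pathway genes, the 8 highest-scoring and those within 3 kb. Members named without a peak of their own were chosen after their values were seen, as were the markers named for cells other than progenitors and fibroblasts. Assignment code was checked on simulated data.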

Additional observations from a re-analysis of the deposited data

How the results depend on the processing

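With peaks below the median score left out, 15 members, 6 ligands, 5 chemokine ligands, 0 TNF superfamily ligands, 1 gene of the TNF receptor superfamily and 11 of the other pathway genes had an assigned peak, against 5.14% of all protein-coding genes, and with peaks under a score of 30 left out the Il1r1 locus held 3 peaks. By gene body and its 20 kb flanks 3 interleukin ligands and 5 chemokine ligands held a peak. The other alternatives run for the members, ligands, receptors, 6 families, other pathway genes, 3 kb window and Il1r1 locus kept each of these counts within 1.5 times and the median score of member peaks, 65 to 109, within its interval. The family counts under each alternative and 2 further alternatives were added after the data were seen. Il1f5, an antagonist gene counted as a ligand by its older symbol, has no peak, so moving it leaves 11 of 86 ligands. Counting any peak within 3 kb of a start site of the promoter table gave 5 members, without Il10rb, against 1.74% of all protein-coding genes, with 130 of the 169 members in that table. No paired analysis was possible because the series has 1 ChIP library and no test. Intervals cover counting error over genes only, and the unknown depth limits what the missing peaks can show.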
